A study of Bos taurus with 16 samples.

Results

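The large ribosomal subunit assembly genes are 42 genes whose products process the precursor ribosomal RNA of the large subunit, fold it with ribosomal proteins and carry the particle towards export from the nucleus. The list was chosen by function with earlier results of these arrays in view, and each gene is represented by the probe set with its highest mean log2 signal over all 16 arrays. Of the 42 genes, 41 carried a single-symbol probe set, among 18010 genes in all with 1 symbol; DDX18 was not analysed here. Each of the 41 had only 1 such probe set. Because the finishing versus growing contrast was known when the genes were listed, their differences and adjusted p-values in that contrast are given as a description and support no claim about the list.

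The arrays measured liver RNA of male Angus steers, 1 array per animal. The finishing group held 8 steers taken to a final body weight of 576 kg, and the growing group held 8 steers taken to 301 kg. All began at 209 ± 29.4 kg after weaning, were allotted at random, and were fed individually for a gain of 1.5 kg per day on a diet based on cotton seed hulls. Final weight and the length of feeding changed together from growing to finishing, so their parts cannot be told apart, and ages were not used here. Whole liver was sampled, so fewer cells of a type and less RNA per cell cannot be told apart in any difference below.

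Most hepatocyte transcripts lay near the top of the scale in both groups, and the list averaged 12.76 in finishing livers and 12.69 in growing livers. ALB, which encodes serum albumin, had a mean log2 signal of 13.75 in finishing livers and 13.75 in growing livers, and the 18 hepatocyte markers had 0 genes higher and 1 lower, AHSG, in limma (2 higher and 3 lower at an unadjusted p under 0.05). HP of that list, named after its values were seen, ran from 11.77 to 12.82 in finishing livers and from 8.02 to 12.46 in growing livers. Its difference of 1.67 was not called (limma adjusted p = 0.0963). Array medians lay between 5.57 and 5.64. Finishing replicates 5 and 6 correlated least with their own group, with median correlations of 0.978 and 0.982, against 0.984 to 0.989 for the other 14 arrays. Results that rest on those arrays are therefore given with and without them.

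Ribosomes are made in the nucleolus, where RNA polymerase I transcribes a long precursor RNA that is cut, modified and packed with proteins into a small and a large subunit. Large subunit assembly runs from early nucleolar particles through removal of the internal spacer RNA and docking of the 5S ribonucleoprotein to export and final maturation in the cytoplasm. GTPases, helicases and AAA-type ATPases drive the steps that reshape the particle. Roles given below were worked out largely in yeast and human cells. In liver, output of ribosomes follows nutrition and growth, and the growth regulator MYC is known to act on many of these genes.

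Most of the large subunit assembly genes had higher signals in finishing livers. The median difference was 0.36 on the log2 scale, or 1.28-fold, against 0.01 over all 18010 genes. Of the 41 genes, 40 had a positive difference, TEX10 being the exception, whereas 53.1% of all genes did. Differences of 36 members exceeded the 75th percentile of all genes (0.11) and those of 30 exceeded the 90th (0.21). The plot of cumulative shares shows the members' curve to the right of the curve for all genes.

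**Figure D1:**
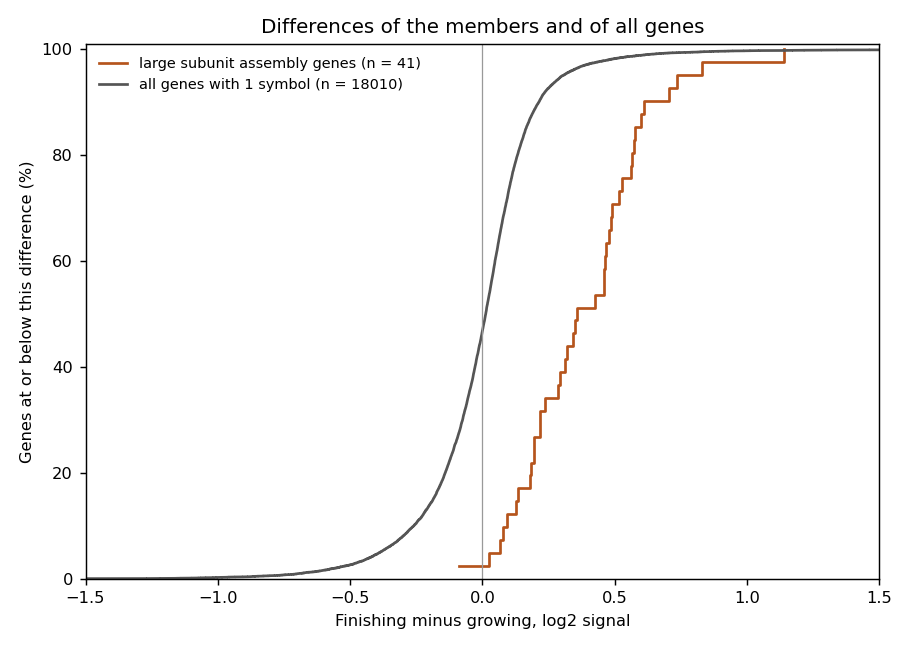
Cumulative percentage of genes (vertical axis) against the finishing minus growing difference in log2 signal (horizontal axis), for the 41 large subunit assembly genes and for all 18010 genes with 1 symbol. The members' median is 0.36 and that of all genes is 0.01.

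In the limma fit, called at an adjusted p under 0.05 (Benjamini-Hochberg, 26773 probe sets), 14 members rose in finishing livers and 0 fell, while 27 were not called. Over all probe sets, 2.34% rose (626) and 4.3% fell (1151). When the arrays were centred on ribosomal protein genes instead, the split over all probe sets was 339 higher and 1487 lower, and 11 members rose. At an unadjusted p under 0.05, 32 members were higher and 0 were lower, against 10.8% of all probe sets higher (2889) and 10.8% lower (2885). Called differences ran from 0.24 to 1.14 on the log2 scale (1.18-fold to 2.20-fold), and those not called from -0.09 to 0.57.

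Fewer members were called without finishing replicates 5 and 6. Then PES1, GNL2, GNL3, URB2 and NVL were called, 5 of 41, against 1.08% of all probe sets called higher. The other 9 called members had adjusted p-values from 0.0562 to 0.173 in limma. The median member difference was 0.29 without them, and 40 of 41 differences were still positive. With their signs kept, differences of 39 members were lower without them, and those of NVL and NMD3 were higher. The 39 include TEX10, which went from -0.09 to -0.14. For 9 members, none of them called, the difference with all arrays was over 1.5 times that without them, among them BRIX1 (0.30 without them), RRP15 (0.30), URB1 (0.17) and RRP1 (0.12).

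**Figure D2:**
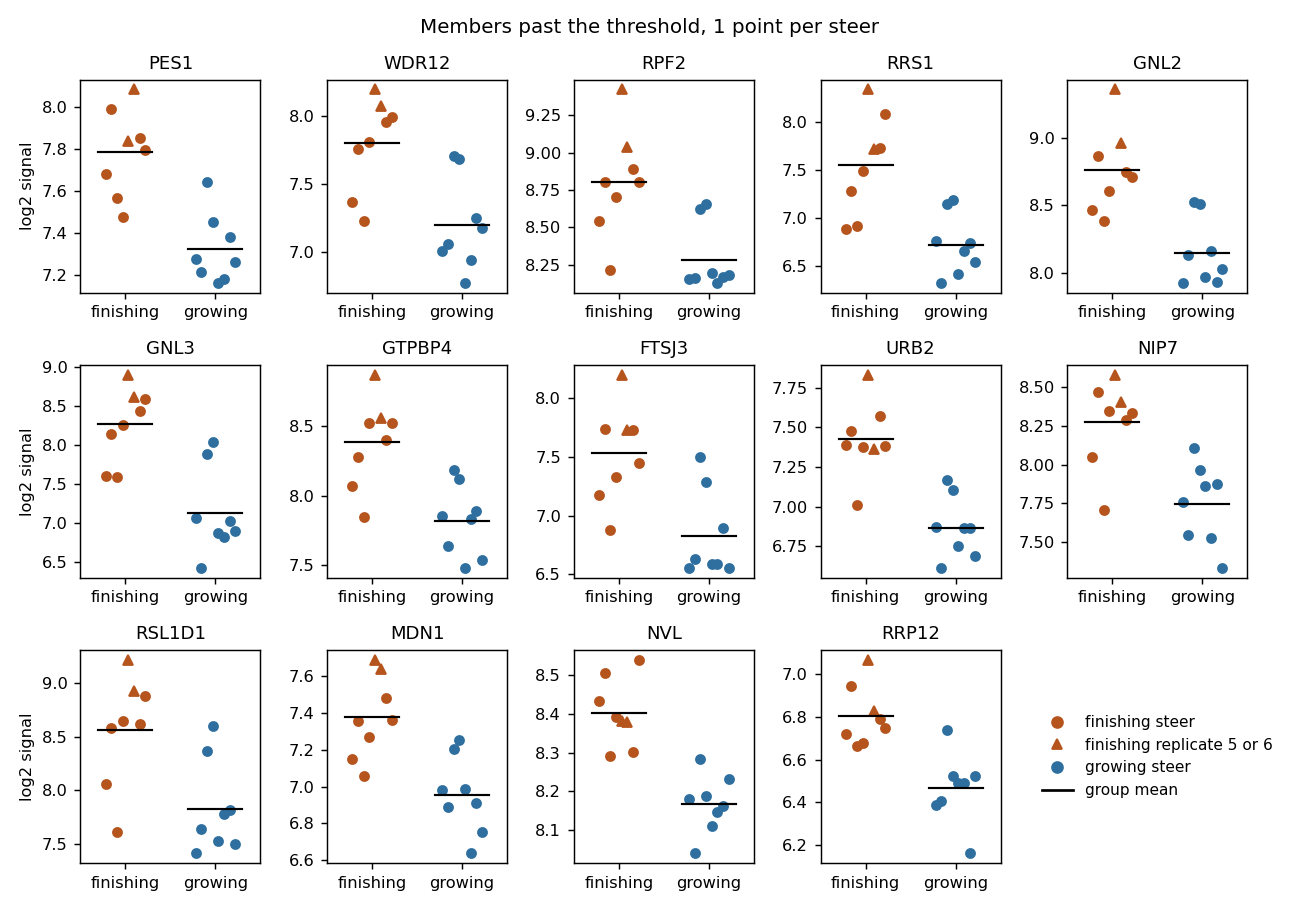
Log2 signal (vertical axis) of the 14 members that rose, with 1 point per steer, finishing (left) and growing (right) in each panel and a line at each group mean. Triangles mark finishing replicates 5 and 6. The groups overlap in every panel except that of NVL, where the finishing values start at 8.29 and the growing values end at 8.28.

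The PeBoW complex, which is needed to process the precursor of the large subunit RNAs, is made of PES1, BOP1 and WDR12. PES1, its pescadillo subunit, had log2 signals of 7.48 at lowest, 7.81 at the median and 8.08 at highest in finishing livers, against 7.16, 7.27 and 7.64 in growing livers. Thus 6 of 8 finishing steers lay above every growing steer. The difference was 0.46 ± 0.09 (SE, n = 8 per group), or 1.38-fold, with a limma adjusted p of 0.00754, and 0.40 with an adjusted p of 0.03 without finishing replicates 5 and 6.

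WDR12, the WD-repeat subunit of that complex, ran from 7.22 through a median of 7.88 to 8.20 in finishing livers, against 6.77, 7.12 and 7.70 in growing livers. Finishing replicates 1 and 3 lay inside the growing range and the other 6 above it. The difference was 0.60 ± 0.16, or 1.52-fold (limma adjusted p = 0.0294; 0.118 without finishing replicates 5 and 6). BOP1 had 6.60, 6.73 and 6.99 in finishing livers, against 6.37, 6.61 and 6.74 in growing livers. Its difference of 0.18 ± 0.07 was not called (limma adjusted p = 0.128).

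RPF2 and RRS1 form the pair that brings the 5S ribonucleoprotein into the early particle, and both rose. RPF2 had 8.21, 8.80 and 9.42 as lowest, median and highest log2 signal in finishing livers, against 8.13, 8.18 and 8.66 in growing livers. Its difference was 0.52 ± 0.14, or 1.43-fold, with a limma adjusted p of 0.0314. RRS1, its partner, had 6.89, 7.60 and 8.34 in finishing livers, against 6.33, 6.70 and 7.19 in growing livers. The difference of RRS1 was 0.83 ± 0.20, or 1.78-fold, with a limma adjusted p of 0.0178. For each gene 6 finishing values exceeded all growing values, and finishing replicate 5 was highest. Without finishing replicates 5 and 6 neither was called, with limma adjusted p-values of 0.0987 for RPF2 and 0.0619 for RRS1.

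Of the 4 nucleolar GTPases, 3 rose. GNL3, also known as nucleostemin, is a GTPase abundant in stem and dividing cells, and it had the largest difference of the 41 members. Its log2 signals in finishing replicates 1 to 8 were 7.60, 8.14, 7.59, 8.26, 8.91, 8.62, 8.43 and 8.60. In growing replicates 1 to 8 they were 7.06, 6.42, 7.88, 8.04, 6.88, 6.82, 7.03 and 6.90. Growing replicates 3 and 4 overlapped the finishing range and the other 6 growing steers lay below it. The difference was 1.14 ± 0.23, or 2.20-fold, with a 95% interval of 0.65 to 1.63 and a limma adjusted p of 0.00922. Without finishing replicates 5 and 6 it was 0.97 (limma adjusted p = 0.0391).

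GNL2, the nucleostemin relative that leaves with the particle towards the nucleoplasm, had 8.38, 8.73 and 9.36 in finishing livers, against 7.93, 8.08 and 8.53 in growing livers. Its difference was 0.61 ± 0.13, or 1.53-fold (limma adjusted p = 0.0112; 0.0322 without finishing replicates 5 and 6). GTPBP4, a GTPase of the nucleolar particle, had 7.85, 8.46 and 8.87 in finishing livers, against 7.48, 7.84 and 8.19 in growing livers. Its difference was 0.57 ± 0.13, or 1.48-fold (limma adjusted p = 0.0186; 0.0699 without finishing replicates 5 and 6). In both genes the same count of finishing steers, 6 of 8, exceeded all growing steers.

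GNL3L, the closest relative of GNL3, had nearly equal values in the groups. It had 7.56, 7.63 and 7.82 in finishing livers, against 7.58, 7.63 and 7.80 in growing livers. Its difference was 0.03, with a 95% interval of -0.09 to 0.14 and a limma adjusted p of 0.835, and it was -0.02 when arrays were centred on ribosomal protein genes. GNL3 and GNL3L thus gave the highest and one of the lowest differences among the 41 genes. Their difference from each other was not tested.

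The 4 measured DEAD-box helicases, RNA-dependent ATPases that remodel RNA in the particle, included 0 genes called by limma, although 3 were higher at an unadjusted p under 0.05. Their median difference was 0.25. DDX54, the brightest of the 4, had 7.41, 7.65 and 7.82 in finishing livers, against 7.30, 7.39 and 7.65 in growing livers. Its difference was 0.22 ± 0.07 (limma adjusted p = 0.0628). Limma adjusted p-values were 0.0591 for DDX51, 0.127 for DDX27 and 0.671 for DDX55, with differences of 0.29, 0.36 and 0.08.

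BRIX1, RPF1 and PPAN belong to the Brix-domain family, which binds precursor RNA. RPF2, which rose and is described above with RRS1, belongs to the same family. Limma called 0 of the 3, and 2 were higher at an unadjusted p under 0.05. BRIX1 (0.48) and PPAN (0.49) had differences of the size of several called genes but with wider spread, at limma adjusted p-values of 0.147 and 0.0815. RPF1, the brightest, had 7.59, 8.07 and 8.15 in finishing livers, against 7.40, 7.93 and 8.20 in growing livers. Its difference was 0.14 ± 0.11 (limma adjusted p = 0.509), and its highest array was a growing one.

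Among the rRNA methyltransferases, FTSJ3 rose. FTSJ3, which in human cells adds 2′-O-methyl groups to precursor RNA, had 6.87, 7.59 and 8.20 in finishing livers, against 6.55, 6.61 and 7.50 in growing livers. Only 4 finishing steers exceeded every growing steer, with growing replicate 3 at 7.50 and growing replicate 4 at 7.29. The difference was 0.70 ± 0.18, or 1.63-fold (limma adjusted p = 0.0258; 0.0952 without finishing replicates 5 and 6). NOP2, a cytosine methyltransferase, had 7.36, 8.03 and 8.82 in finishing livers, against 7.11, 7.42 and 8.11 in growing livers. Its difference of 0.57 ± 0.18 was not called (limma adjusted p = 0.0641).

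The 13 early nucleolar assembly factors had a median difference of 0.35, all positive, and 3 rose. URB2, a nucleolar protein of early assembly, had the smallest adjusted p of the 41 members. Its log2 signals in finishing replicates 1 to 8 were 7.39, 7.48, 7.01, 7.38, 7.83, 7.37, 7.57 and 7.38. In growing replicates 1 to 8 they were 6.87, 6.61, 7.17, 7.11, 6.75, 6.86, 6.86 and 6.69. Only finishing replicate 3 fell inside the growing range. The difference was 0.56 ± 0.10, or 1.47-fold (limma adjusted p = 0.00501; 0.0185 without finishing replicates 5 and 6).

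NIP7, which takes part in precursor RNA processing, had 7.71, 8.34 and 8.58 in finishing livers, against 7.33, 7.81 and 8.11 in growing livers. Its difference was 0.53 ± 0.13, or 1.44-fold (limma adjusted p = 0.0192; 0.0775 without finishing replicates 5 and 6). RSL1D1, a nucleolar protein with a ribosomal L1 domain, had 7.61, 8.63 and 9.22 in finishing livers, against 7.42, 7.71 and 8.60 in growing livers. For RSL1D1 5 of 8 finishing values exceeded all growing values, and the difference was 0.74 ± 0.22, or 1.67-fold. Its limma adjusted p of 0.0486 was the closest to the threshold of the 14, and it was 0.173 without finishing replicates 5 and 6.

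The other 10 early factors were not called. NOC2L and NOC3L have yeast counterparts that move with the particle out of the nucleolus. NOC3L had the largest difference of the uncalled members, 0.57 (limma adjusted p = 0.0653). RRP15 (0.46), MAK16 (0.46), NOP16 (0.31), RRP1B (0.32) and RBM28 (0.35) had limma adjusted p-values of 0.0773, 0.0826, 0.0523, 0.102 and 0.156. URB1, a nucleolar protein of the early particle, had a difference of 0.29 with a limma adjusted p of 0.215. RRP1 (0.22), EBNA1BP2 (0.20) and NOC2L (0.13) were further from the threshold, at 0.22, 0.351 and 0.477.

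LAS1L, PELP1 and TEX10 act in removal of the internal transcribed spacer between the large subunit RNAs, LAS1L being its endonuclease, and they had the lowest median difference of the role groups, 0.09. Limma called 0 of the 3, with 1 higher at an unadjusted p under 0.05. LAS1L, the brightest, had 8.18, 8.47 and 8.66 in finishing livers, against 8.10, 8.26 and 8.39 in growing livers, a difference of 0.19 ± 0.08 (limma adjusted p = 0.156). PELP1 differed by 0.09 (limma adjusted p = 0.547). TEX10 differed by -0.09 ± 0.10, with a 95% interval of -0.30 to 0.13 (limma adjusted p = 0.671).

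**Figure D3:**
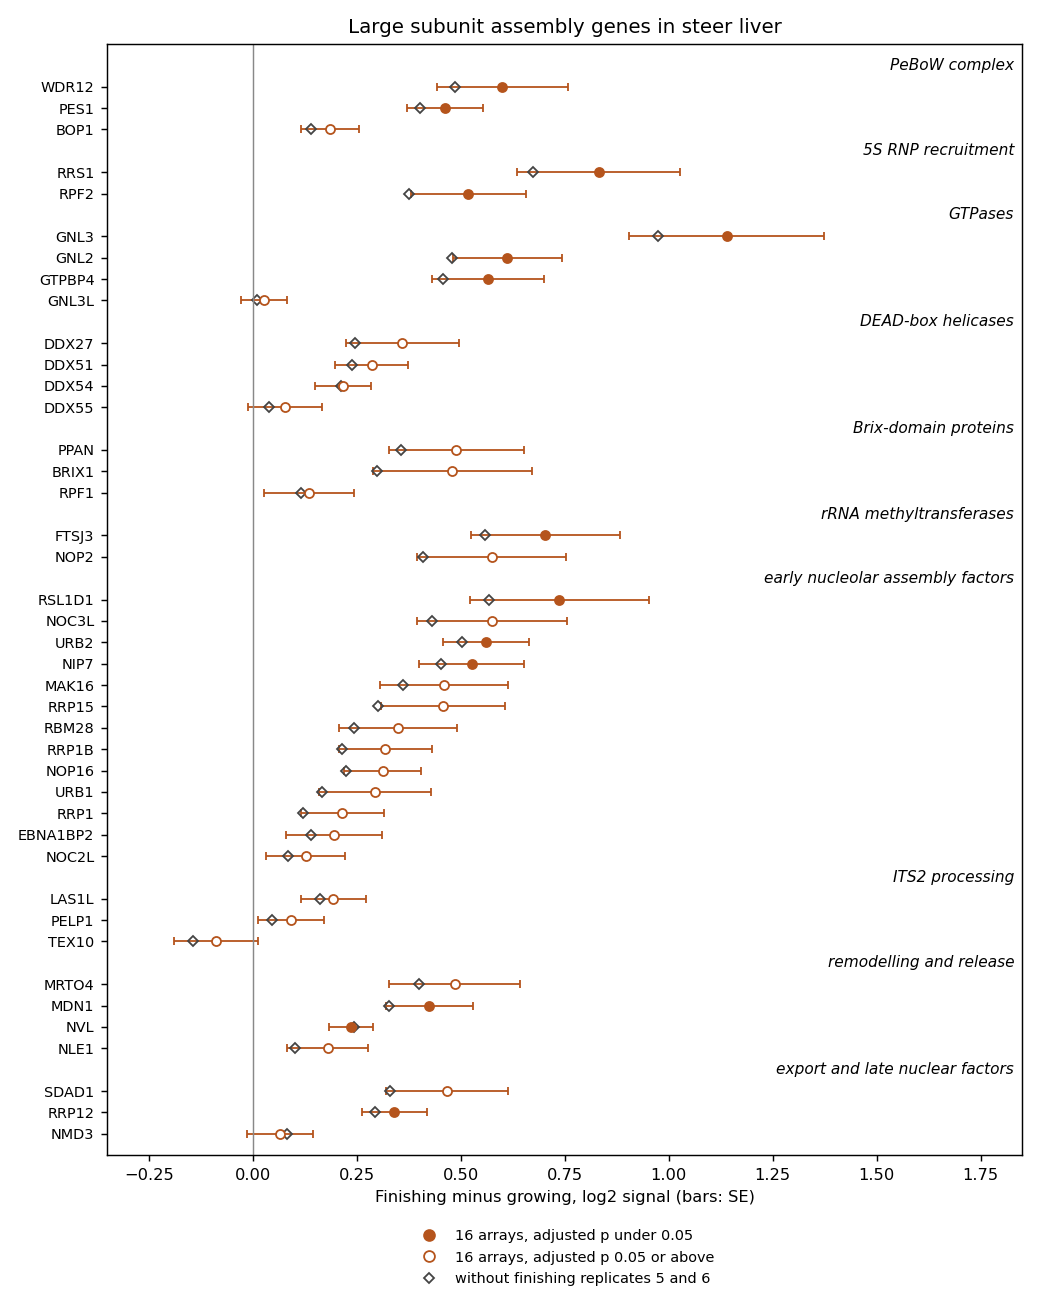
Finishing minus growing difference in log2 signal with its standard error for the 41 members, ordered by role. Filled circles mark the 14 members called by limma and open circles the 27 not called, and diamonds give the difference without finishing replicates 5 and 6.

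Remodelling of the particle is the work of the AAA-type ATPases MDN1 and NVL, with NLE1 and MRTO4 acting at neighbouring steps. NVL was the one member whose groups did not overlap; over all probe sets 0.187% (50) had every finishing value above every growing value. NVL had 8.43, 8.51, 8.29, 8.39, 8.38, 8.38, 8.30 and 8.54 in finishing replicates 1 to 8. It had 8.18, 8.04, 8.28, 8.19, 8.11, 8.15, 8.16 and 8.23 in growing replicates 1 to 8. Its difference was small but even, at 0.24 ± 0.05, or 1.18-fold (limma adjusted p = 0.0152). It was 0.24 without finishing replicates 5 and 6 as well (limma adjusted p = 0.0376).

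MDN1, the very large ATPase that strips factors from the particle, had 7.06, 7.36 and 7.69 in finishing livers, against 6.64, 6.95 and 7.25 in growing livers. The difference was 0.42 ± 0.10, or 1.34-fold (limma adjusted p = 0.0214; 0.0831 without finishing replicates 5 and 6). MRTO4, which in yeast holds the place of the ribosomal stalk protein, differed by 0.49 (limma adjusted p = 0.0737). NLE1, the WD-repeat partner on which MDN1 acts, differed by 0.18 (limma adjusted p = 0.30).

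In the late and export group RRP12, a HEAT-repeat export factor that in yeast serves both subunits, rose. It had 6.67, 6.77 and 7.07 in finishing livers, against 6.16, 6.49 and 6.74 in growing livers, with 5 finishing steers above all growing steers. The difference was 0.34 ± 0.08, or 1.27-fold (limma adjusted p = 0.0162; 0.0562 without finishing replicates 5 and 6). NMD3, the adaptor that takes the large subunit through the nuclear pore, differed by 0.07 with a 95% interval of -0.10 to 0.23 (limma adjusted p = 0.692). SDAD1, whose yeast counterpart is needed for export of the large subunit, differed by 0.47 (limma adjusted p = 0.0661).

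The highest values of most members fell in the same few steers, as the heat map of deviations shows, while the lowest were spread over 9 steers, none with more than 8 members. Finishing replicate 5 had the highest of the 16 signals in 30 of 41 members and finishing replicate 6 in 5. Finishing replicate 3 was the lowest finishing array in 30 members. Growing replicate 3 or 4 was the highest growing array in 36 members, including all 14 that rose. How often these arrays were highest or lowest over all genes was not counted, and finishing replicate 5 correlated least with its group over all probe sets. The median deviation of the members from the growing mean was 0.83 in finishing replicate 5 and 0.55 in finishing replicate 6. It was 0.18, 0.41, -0.04, 0.23, 0.37 and 0.41 in finishing replicates 1, 2, 3, 4, 7 and 8. In growing replicates 3 and 4 it was 0.30 and 0.25, and in the other 6 growing steers it lay between -0.13 and -0.03. Finishing replicate 3 therefore sat among the growing steers, and growing replicates 3 and 4 sat among the finishing steers.

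**Figure D4:**
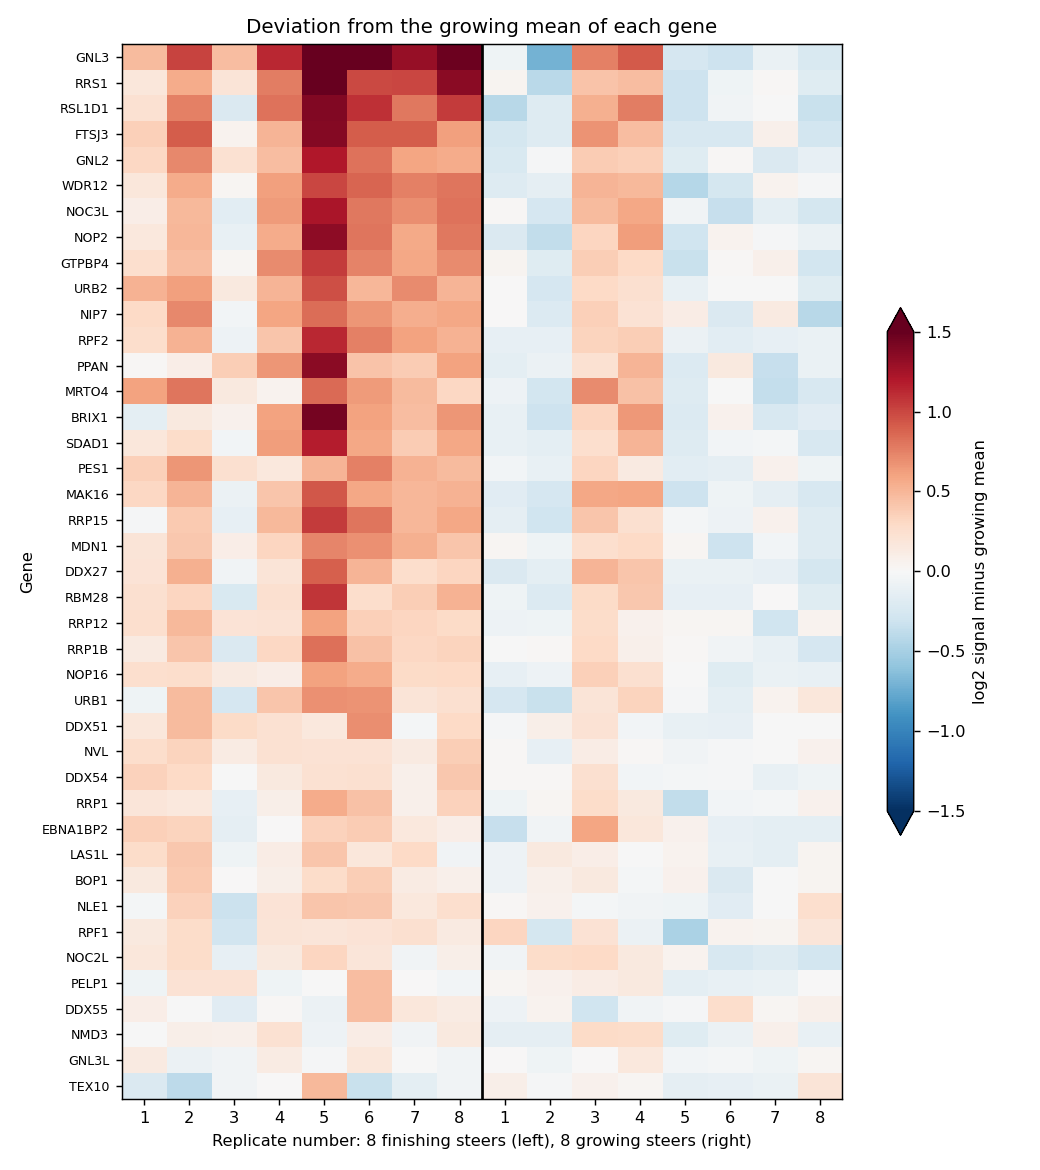
Deviation of each member (rows, sorted by difference) in each steer (columns, finishing left of growing) from its growing mean, in log2 units, with values beyond 1.5 in either direction drawn in the end colour. Finishing replicates 5 and 6 are the columns with the highest median deviations, 0.83 and 0.55, and growing replicates 3 and 4 stand above the other growing columns.

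Averaged over the 41 members, the log2 signal was 7.47 ± 0.22 in finishing steers and 7.09 ± 0.18 in growing steers (SD, n = 8 each). It ran from 7.09 to 7.85 in finishing steers and from 6.96 to 7.40 in growing steers, so the ranges overlapped. In 20 members, 12 of them called, all 8 finishing values lay above the growing median, as in 6.8% of all probe sets. The SD among finishing steers exceeded that among growing steers in 31 members and in 61.1% of all genes. The median SD of the members was 0.275 in finishing steers and 0.228 in growing steers, against 0.186 in finishing and 0.164 in growing steers over all genes. Without finishing replicates 5 and 6 the median finishing SD of the members was 0.204.

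Leaving out each of the 16 arrays in turn, 10 of the 14 members were called by limma in every fit, and WDR12, RPF2, FTSJ3 and RSL1D1 were not. WDR12 lost the call in 9 fits, without growing replicates 1, 2, 5, 6 or 8 and without finishing replicates 5, 6, 7 or 8, at adjusted p-values of 0.0519 to 0.0601. RPF2 lost it in 10 fits, without growing replicates 1, 2, 5, 6, 7 or 8 and without finishing replicates 2, 6, 7 or 8, at 0.0518 to 0.0638. FTSJ3 lost it in 7 fits, without growing replicates 1, 2, 6 or 8 and without finishing replicates 2, 6 or 7, at 0.0505 to 0.0524. RSL1D1 lost it in 12 fits, without growing replicates 1, 2, 5, 6, 7 or 8 and without finishing replicates 2, 4, 5, 6, 7 or 8, at 0.0692 to 0.0927.

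Calls were also gained when 1 array was left out, always growing replicate 3 or 4 or finishing replicate 1, 3, 4 or 7. The members called numbered 22 without growing replicate 3, 21 without growing replicate 4, 23 without finishing replicate 3 and 18 without finishing replicate 1. The share of all probe sets called higher also differed between these fits, at 2.94%, 2.58%, 3.29% and 2.55% in the same order. Over the 16 fits 13 uncalled members passed the threshold at least once, with lowest limma adjusted p-values of 0.0177 to 0.049, and 14 never did. NOC3L and NOP16 passed in 4 fits each. NOC3L reached 0.0182 without finishing replicate 3, 0.0349 without growing replicate 4, 0.041 without growing replicate 3 and 0.0429 without finishing replicate 1. NOP16 reached 0.0189 without growing replicate 3, 0.0353 without growing replicate 4, 0.0398 without finishing replicate 3 and 0.0405 without finishing replicate 4. Both genes lay near the threshold in the fit of all arrays.

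Of the other 11 members that gained a call, 4 passed the limma threshold in 3 fits each. NOP2 reached 0.0202 without finishing replicate 3, 0.0295 without growing replicate 4 and 0.0469 without finishing replicate 1. RRP15 reached 0.0237 without finishing replicate 3, 0.0396 without finishing replicate 1 and 0.0449 without growing replicate 3. MAK16 reached adjusted p-values of 0.0306 to 0.0309 without growing replicate 3, growing replicate 4 or finishing replicate 3. MRTO4 reached 0.0177 without growing replicate 3, 0.0455 without growing replicate 4 and 0.0457 without finishing replicate 4. Passing in 2 fits each were DDX51 (0.0379 without growing replicate 3, 0.032 without finishing replicate 7) and DDX54 (0.0258 without growing replicate 3, 0.0263 without finishing replicate 3). PPAN (0.044 without growing replicate 4, 0.0472 without finishing replicate 1) and SDAD1 (0.0309 without growing replicate 4, 0.0259 without finishing replicate 3) also passed in 2. In 1 fit each, DDX27 reached 0.049 without growing replicate 3, RBM28 0.0485 without finishing replicate 3 and RRP1B 0.018 without finishing replicate 3. Many calls therefore changed in both directions when 1 array was left out, while 40 of 41 differences were positive in every one of the 16 fits. The share of all probe sets called higher changed as well. It ran from 1.53% without growing replicate 1 to 3.29% without finishing replicate 3, against 2.34% with all arrays. WDR12 lost its call without growing replicate 8 although its difference stayed at 0.60.

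Other genes of ribosome production were described from lists chosen with the same results in view. Of 38 measured further large subunit assembly genes, limma called 12 higher and 0 lower (23 higher and 0 lower at an unadjusted p under 0.05), with a median difference of 0.26, and 3 without finishing replicates 5 and 6. ZNF622, a cytoplasmic maturation factor, averaged 6.88 ± 0.17 in finishing livers and 6.47 ± 0.13 in growing livers, with a difference of 0.41 ± 0.08 (limma adjusted p = 0.00672). NHP2, a protein of the box H/ACA particles that guide pseudouridylation, differed by 0.50 ± 0.10 (limma adjusted p = 0.00807). GRWD1, a chaperone of ribosomal protein uL3, differed by 0.63 ± 0.14 (limma adjusted p = 0.0112). The list of exosome and trimming genes, which shorten precursor RNA ends, had 2 of 13 called higher, EXOSC10 (0.40, limma adjusted p = 0.0124) and EXOSC3 (0.48, limma adjusted p = 0.0176; 0.0571 without finishing replicates 5 and 6).

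The small subunit processome cuts and folds the precursor of the small subunit RNA. The list named after it also holds later small subunit factors such as TSR1. Of the list's 46 measured genes, 18 rose and 0 fell in limma (35 higher and 0 lower at an unadjusted p under 0.05). All 46 differences were positive, and the median was 0.31. Without finishing replicates 5 and 6, 4 of the 46 were called. UTP20, a large scaffold protein of the processome, averaged 8.84 ± 0.37 in finishing livers and 7.63 ± 0.39 in growing livers, a difference of 1.21 ± 0.18 (limma adjusted p = 0.00143). TSR1, a late small subunit factor, differed by 0.86 ± 0.17 (limma adjusted p = 0.00688) and MPHOSPH10, a processome subunit, by 0.65 ± 0.13 (limma adjusted p = 0.00798). Large subunit assembly genes and processome genes share the same 16 steers, and their difference from each other was not tested.

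The list of RNA polymerase I genes, MYC and nucleolin had 5 of 23 genes called higher and 0 lower in limma (10 higher and 0 lower at an unadjusted p under 0.05), with a median difference of 0.22. Without finishing replicates 5 and 6, 2 were called and the median was 0.12. NCL, the nucleolar protein nucleolin, averaged 10.64 ± 0.22 in finishing livers and 10.17 ± 0.21 in growing livers, a difference of 0.48 (limma adjusted p = 0.0128; 0.051 without finishing replicates 5 and 6). NOLC1, a nucleolar chaperone of small nucleolar particles, differed by 0.79 (limma adjusted p = 0.0135), and MNT, a repressor of the MYC network, by 0.33 (limma adjusted p = 0.0131; 0.052 without finishing replicates 5 and 6). MYC itself, named here after its values were seen, averaged 7.71 ± 1.19 in finishing livers and 6.80 ± 0.58 in growing livers (SD, n = 8 each). Its difference of 0.91 ± 0.42 was not called (limma adjusted p = 0.218), and was 0.43 without finishing replicates 5 and 6 (limma adjusted p = 0.581). MYC was at 9.34 and 8.97 in finishing replicates 5 and 6, and at 7.33 and 7.76 in growing replicates 3 and 4, the highest values of each group. In finishing replicates 1, 2, 3, 4, 7 and 8 MYC was at 6.66, 7.19, 6.83, 6.07, 8.03 and 8.62. In growing replicates 1, 2, 5, 6, 7 and 8 it was at 6.17, 6.61, 6.05, 7.04, 6.96 and 6.47. The members' median deviation was 0.41 in finishing replicate 2, with MYC at 7.19, and 0.41 in finishing replicate 8, with MYC at 8.62. These steers were picked with the values in view, and no association of MYC with the members over the steers was computed. The part of MYC in the members' differences was not tested.

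The ribosomal proteins themselves did not pass the test. Of 22 measured large subunit proteins, 0 were called by limma, with 2 higher and 2 lower at an unadjusted p under 0.05 and a median difference of 0.02. Of 16 measured small subunit proteins, 0 were called, with 0 at an unadjusted p under 0.05 and a median of 0.05. RPS23 and RPS14, named after their values were seen, averaged only 3.51 and 3.91 in finishing livers and 3.21 and 3.76 in growing livers. These lie below the lower quartile of all probe set means, 4.08, and both genes are among those used for centring. Measured proteins are those with a single-symbol probe set, out of 46 listed for the large and 32 for the small subunit. Averaged per steer, the large subunit proteins lay at 9.01 to 9.21 in finishing livers and at 8.98 to 9.25 in growing livers.

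**Figure D5:**
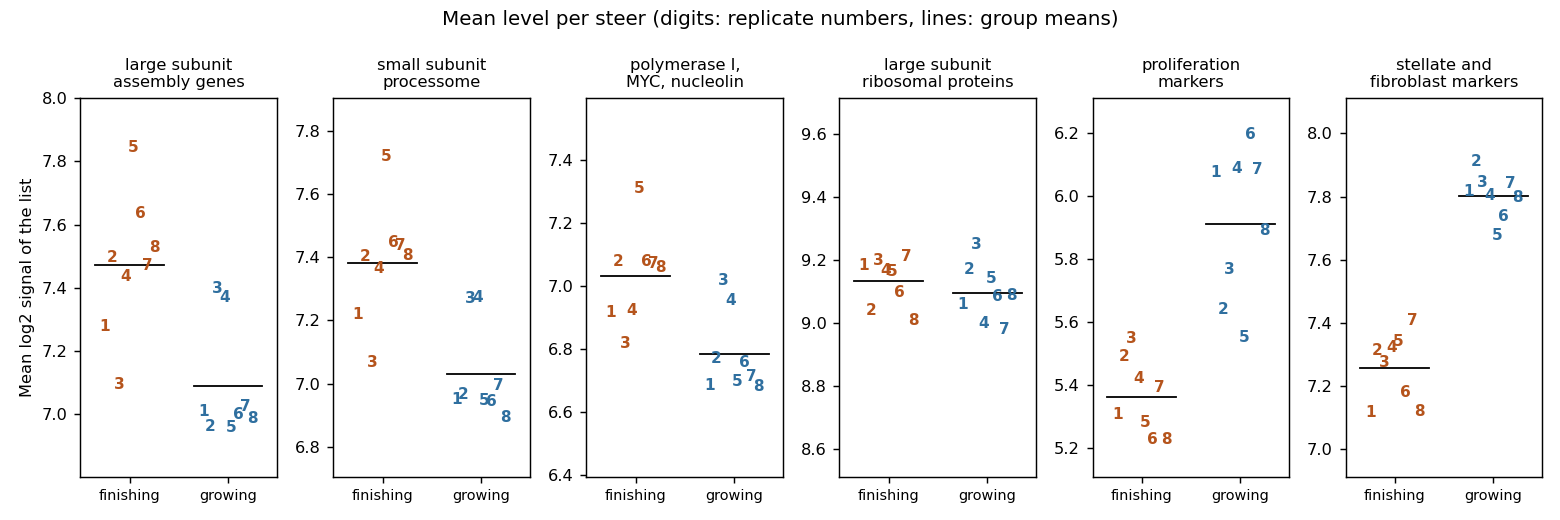
Mean log2 signal per steer (vertical axis) for 6 gene lists, with finishing left of growing, digits giving the replicate number, and each panel spanning the same height of 1.2 log2 units. Finishing replicate 5 is highest for the large subunit assembly genes at 7.85, and the large subunit ribosomal proteins lie between 8.98 and 9.25 in all steers.

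Some markers of other liver cells also differed between the groups, where limma called 4.3% of all probe sets lower. Of 13 stellate cell and fibroblast markers 9 fell, with a median difference of -0.44, and their mean level was 7.12 to 7.41 in finishing livers, against 7.68 to 7.91 in growing livers. LUM, a collagen-binding proteoglycan, fell by 0.97 (limma adjusted p = 0.000189), and LRAT, which stores retinol in stellate cells, fell by 1.08 (limma adjusted p = 0.000996). Of 13 Kupffer cell and macrophage markers 5 fell and 2 had positive differences, with a median of -0.39. CD68, C1QA and CD14, named after their values were seen, lost the call in 13, 14 and 12 of the 16 fits that left out 1 array. The receptor CSF1R fell by 0.72 (limma adjusted p = 0.00763) and TIMD4 by 0.71 (limma adjusted p = 0.0174; 0.0607 without finishing replicates 5 and 6). That list's mean level was 8.24 to 9.30 in finishing livers, against 8.94 to 9.45 in growing livers, and 1 of its genes was called without those replicates. Of 16 T and NK lymphocyte markers 7 fell, among them CD3D by 0.96 (limma adjusted p = 0.00462) and KLRB1 by 0.72 (limma adjusted p = 0.00457), and the list's mean level was 5.42 to 5.87 in finishing livers, against 5.78 to 6.37 in growing livers. Of 7 B and plasma cell markers only CD79A fell, by 0.61 (limma adjusted p = 0.00135), with list means of 5.29 to 5.74 in finishing livers and 5.50 to 5.86 in growing livers.

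Of 13 endothelial markers 2 fell, 5 differences were positive, and the median was -0.15. PECAM1 fell by 0.34 (limma adjusted p = 0.0226) and CDH5 by 0.38 (limma adjusted p = 0.0238; 0.0733 without finishing replicates 5 and 6), with list means of 8.40 to 8.69 in finishing livers and 8.51 to 8.77 in growing livers. Of 7 cholangiocyte markers CLDN4 fell by 0.43 (limma adjusted p = 0.0472), a call lost in 12 of the 16 fits that left out 1 array, at adjusted p-values up to 0.0902, and without finishing replicates 5 and 6 (0.117). CFTR of the same list, named after its values were seen, had a difference of 0.35 in the other direction and was not called (limma adjusted p = 0.0587). The median of the list was -0.06, and its means were 4.93 to 5.35 in finishing livers and 5.02 to 5.67 in growing livers. The hepatocyte list lay at 12.69 to 12.85 in finishing livers and 12.52 to 12.81 in growing livers, and its one called gene, AHSG, which encodes fetuin-A, fell by 0.46 (limma adjusted p = 0.000996). Of the proliferation markers 14 of 23 fell and 2 had positive differences, 1 of them at an unadjusted limma p under 0.05. The list's median was -0.49, with list means of 5.23 to 5.55 in finishing livers, against 5.55 to 6.19 in growing livers. Only 10 of the 23 lay above the median probe set mean. CCNA2, a cyclin of S phase and mitosis, fell by 1.14 (limma adjusted p = 0.00146) and the mitotic kinase AURKB by 0.70 (limma adjusted p = 0.00105). AURKB averaged 4.09 in finishing livers, near the lower quartile of all probe set means, 4.08. Without finishing replicates 5 and 6, limma called 12 proliferation, 8 stellate cell and fibroblast and 6 T and NK markers lower. It called 1 hepatocyte, 1 B and plasma cell, 1 endothelial and 0 cholangiocyte markers lower, and 654 of all 26773 probe sets. The part of these cell populations in the differences of the large subunit assembly genes was not tested.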

How the data were processed

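Liver RNA of 16 steers was measured on 1 array each. The deposited values, 1.48 to 14.12, were taken to be log2 signals per probe set because of that range, and no further normalisation was applied. Biotin cRNA was made by the Affymetrix protocol per the labels' protocols, and GCOS 1.2 and Partek 6.4 are named per the submitters' processing notes. The summarisation and normalisation methods are not given in the sources used here, and the files hold no detection calls. Gene names rest on the platform annotation, which gave 1 symbol to 18457 of 26773 probe sets, several to 688 and none to 7628. By gene ID 17996 matched the RefSeq table of ARS-UCD2.0, including all 41 members, and 0 symbols changed. The labels describe oligo(dT) priming, whereas the annotation looks like one for a gene array.

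Groups came from the labels. Differences, finishing minus growing, were fitted over all probe sets by lmFit and eBayes in limma (version 3.58.1, run in R 4.3.3), with no variance trend and 2-sided p-values adjusted by Benjamini-Hochberg. Calls are adjusted p-values under 0.05, and each difference carries its standard error from the fit. The number of arrays limits the precision. The members and lists were chosen with earlier results of these data known. Named are all members by role, up to 3 called genes of each further pathway list and up to 2 of each cell list with the smallest p. The fit was tested on simulated data in which probe sets varied independently, which does not cover genes that vary together across steers. The alternatives were quantile normalisation, centring on array medians or on 38 ribosomal protein genes, a robust variance trend, array weights, filters on dim probe sets, averaged probe sets, a threshold of 0.01, a replicate block, and arrays left out.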

Additional observations from a re-analysis of the deposited data

Results flagged for a closer look

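In each group of 8 steers, the values of each of the 41 members and of their mean level, 84 sets in all, were examined for a single array far from the others, and 4 had one, where chance gives about 1 in 20. RPF1 was at 7.59 in finishing replicate 3, below the next lowest finishing value of 8.01. TEX10 was at 6.95 in finishing replicate 5, above the next highest finishing value of 6.46. GNL3L was at 7.80 in growing replicate 4, above the next growing value of 7.67. DDX54 was at 7.65 in growing replicate 3, above the next growing value of 7.43.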

How the results depend on the processing

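The count of members that rose, 14 in the comparison as reported, was 24 with array weights, 24 of 40 tested above the median probe set mean, 3 at a threshold of 0.01, 5 without finishing replicates 5 and 6, and 10 to 23 over the fits that left out 1 array. The share of tested probe sets called higher, 2.34% as reported, was 3.31%, 6.13%, 0.42%, 1.08% and 1.53% to 3.29% in the same order. The member count was 16 with quantile normalisation, 14 with median centring, 11 with ribosomal protein centring, 15 with a robust variance trend, 17 above the lower quartile and 14 with averaged probe sets. In these fits the share was 2.50%, 2.20%, 1.27%, 2.48%, 3.74% and 2.36%. The count of members that fell was 0 in every one of these limma fits. The median member difference stayed between 0.29 and 0.39, and between 0.30 and 0.43 over the fits that left out 1 array. Over all probe sets 1777 were called in the comparison as reported, 431 at a threshold of 0.01, 942 without finishing replicates 5 and 6, and 1282 to 2205 over the fits that left out 1 array. GNL3L changed sign, to -0.021, with ribosomal protein centring. The causes were not tested, except that a dim filter tests fewer probe sets and a stricter threshold calls fewer. Same-numbered steers had correlations of -0.153 to 0.0406 and 1 of 8 finishing arrays correlated best with its own number, so the numbers were not taken as pairs. With the replicate number as a block 3 members were called higher and 0 lower. Of all 26773 probe sets, 910 were called in that fit, 268 higher and 642 lower.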
